A study of Mus musculus with 4 samples.

Results

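The Achilles tendon of sham-operated neonatal mice was set against that of sham-operated adult mice, to ask which genes a growing tendon and a mature tendon express differently when the tendon itself has not been cut. All animals were male Scx-EGFP homo mice (C57BL/6 background), a line that carries a green fluorescent reporter for Scx, a transcription factor of tendon cells. The 7-day sham pool held RNA of 11 neonatal mice and the 6-month sham pool RNA of 5 adult mice, each operated on the left hindlimb and sampled 5 days after the operation, so neither pool is a tendon without surgery. Whether the ages of 7 days and 6 months are those at operation or at harvest is not settled by the labels. The series also holds tenotomy pools from right hindlimbs, of 11 mice at 7 days and 9 mice at 6 months, whose values are given beside some genes. The labels describe the tendons of those pools as uninjured as well, so they are called tenotomy pools from the operation alone. With 1 pool per group there is no measure of how animals vary, and no difference below has a replicate check or a test.

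Each gene entry that carried the same name in both deposited tables was compared, 23350 in all. After small RNA and Gm entries were left out (no mitochondrially encoded entry was present), 21385 entries remained, and 9224 of them reached 5 FPKM (sequenced fragments relative to transcript length and library size) in at least 1 of the 2 sham libraries. Pairs of values below are FPKM in the 7-day sham library first and the 6-month sham library second. Ratios are log2((7-day FPKM + 1)/(6-month FPKM + 1)), from which the median over those 9224 genes, 0.25, was subtracted, since the libraries stand in 2 tables that may have been scaled separately. A positive ratio means higher at 7 days, and a gene is called higher in a library past 2-fold on this scale, which understates differences of low genes. Of the 9224 genes, 754 (8.17%) were higher at 7 days, 903 (9.79%) were higher at 6 months and 7567 lay within 2-fold. Without the centring, 1192 were higher at 7 days and 601 at 6 months, so the split of calls between the ages depends on the scaling. At the thresholds, Pcolce (380.3 and 159.7 FPKM) was just inside the higher call and Trim44 (29.4 and 11.8 FPKM) just outside it. Parp6 (7.22 and 12.9 FPKM) was just inside the lower call and Thbs1 (75.5 and 128 FPKM) just outside it. Lilrb4 (4.25 and 5.0002 FPKM) was just at the floor and Akip1 (3.33 and 4.9996 FPKM) just below it.

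The steps between low FPKM values put the depth at about 2650000 fragments (7-day sham) and 1810000 fragments (6-month sham). At 5 FPKM a transcript of 2 kb then rests on about 24.1 and 16.1 fragments, and a count of 0 allows up to 3 fragments, which is 0.622 and 0.931 FPKM for such a transcript. Of the genes at the floor, 1369 reached it in the 7-day library alone and 609 in the 6-month library alone. An exact 0 can be a failed estimate in these tables. Rpl30, a ribosomal protein gene of every cell, is listed at 0 in the 7-day sham library and at 8.41 FPKM in the 6-month one. The tendon label held in both libraries, with Scx at 24.8 and 15.9 FPKM, Mkx, a homeobox gene of tendon, at 33.7 and 24.8 FPKM, the proteoglycan gene Fmod at 739.6 and 578 FPKM and the thrombospondin gene Thbs4 at 302 and 563 FPKM. Both libraries also held markers of other tissues, given with the results they touch. In such bulk samples, fewer cells of a type and less RNA per cell cannot be told apart.

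**Figure D1:**
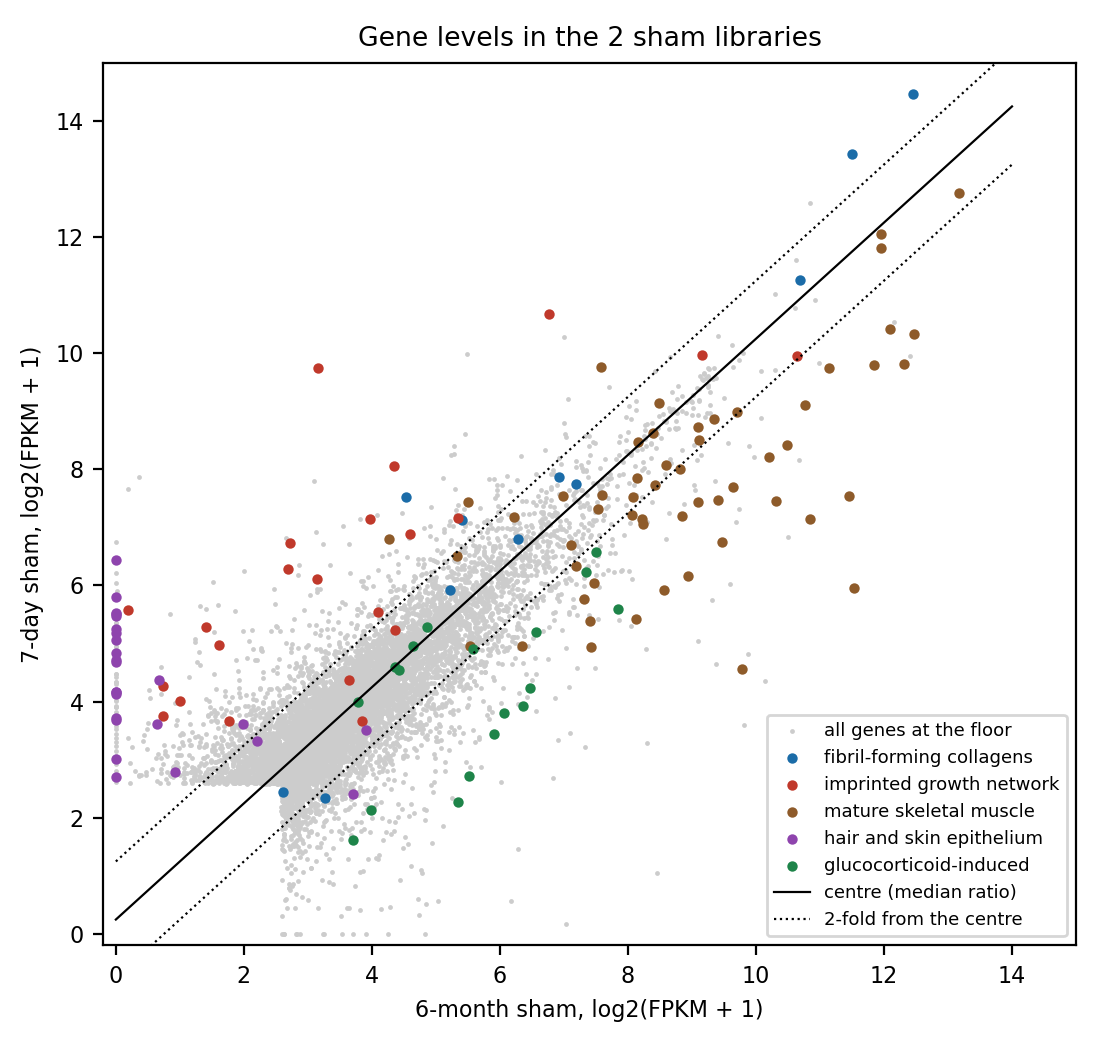
Level of each of the 9224 genes in the 6-month sham library (x axis) and the 7-day sham library (y axis), both as log2(FPKM + 1), with 5 gene lists coloured. The solid line is the median ratio and the dotted lines lie 2-fold from it. Most imprinted growth genes and hair genes sit above the band, and 12 of 18 glucocorticoid-induced genes and many muscle genes sit below it.

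After birth a tendon passes from a tissue of dividing cells that lay down new fibrils to a tissue of few, mostly quiescent cells between thick fibrils. Type I collagen forms the fibrils, type V and XI collagens start them, small leucine-rich proteoglycans set their diameter, and thrombospondins and Comp organise them. In growing mammals a network of imprinted genes around Igf2, the fetal growth factor, is active in many mesenchymal tissues and is turned down together as growth slows. Where a tendon inserts into bone or bends over it, its cells become fibrocartilage-like and the matrix can mineralise with age.

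Genes of the tendon lineage were largely alike in the 2 libraries, except for tenomodulin. Of 12 genes, 11 tendon transcription factors and Tnmd, 6 reached the floor, 1 was higher at 7 days and none at 6 months. Tnmd, a membrane protein gene of differentiated tenocytes on chromosome X (chrX:133851008-133865578, the span of its locus in the deposited mm10 tables, as are the positions below), stood at 301.1 and 36.9 FPKM, a ratio of 2.75. Scx had a ratio of 0.36 and Mkx a ratio of 0.18, both well inside the 2-fold band. The median of the 6 was 0.27, but it was -0.01 with a floor of 1 FPKM, so no direction is given for the list. In the tenotomy pools Tnmd kept the same order, with 279 and 47.02 FPKM at 7 days and 6 months.

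Type I and type XI collagen genes, and part of the machinery that folds collagens, were higher at 7 days. Of 11 fibril-forming collagen genes, all at the floor, 4 were higher at 7 days and 1 at 6 months (median 0.46). Col1a1, which encodes the main chain of tendon fibrils (chr11:94936270-94951856, mm10), stood at 22438 and 5578 FPKM, a ratio of 1.76, and Col1a2, its partner chain, at 11019 and 2895 FPKM. Together they took 8.93% of the FPKM of kept genes at 7 days and 2.38% at 6 months. The levels of the chains kept nearly the same proportion to each other, with a Col1a1 to Col1a2 ratio of 2.04 and 1.93. Col11a2 (182 and 22.1 FPKM) and Col11a1 (139 and 41.4 FPKM), whose product starts thin fibrils, were the other members higher at 7 days. Col3a1, a collagen of thin and early fibrils, stood at 2449 and 1652 FPKM and lay within 2-fold (ratio 0.32). Its level was 10.9% of that of Col1a1 at 7 days and 29.6% at 6 months. Col27a1 (4.03 and 8.67 FPKM) was the member higher at 6 months.

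Among enzymes and chaperones of collagen, nearly all called genes were on the neonatal side. Of 26 genes for collagen folding, modification and crosslinking found in the tables, 24 reached the floor, 10 were higher at 7 days and 1 at 6 months (median 0.67). Serpinh1, the collagen chaperone Hsp47, stood at 373 and 130.0 FPKM. Crtap, part of the complex that hydroxylates a single proline of the collagen chains, stood at 81.6 and 20.1 FPKM, and Creb3l1, a transcription factor that drives collagen secretion in bone, at 44.6 and 14.5 FPKM. Loxl2, a crosslinking oxidase, had the largest ratio of the list (201 and 38.2 FPKM, ratio 2.12), whereas its relative Lox stood at 169.5 and 163 FPKM. Adamts3, which trims procollagen, stood at 7.41 and 0.979 FPKM. In the broader secretory pathway, of 38 genes, 3 were higher at 7 days, 1 was higher at 6 months and 34 lay within 2-fold (median 0.48). Over all genes, 8.17% were higher at 7 days and 9.79% at 6 months, so nothing is drawn from these calls. A ratio above 0 was found for 30 of the 38.

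A few collagens outside the fibrils were also higher at 7 days, and most lay within 2-fold. Of 8 fibril-associated and related collagen genes at the floor, 2 were higher at 7 days and none at 6 months (median 0.57). Col14a1, which coats fibrils during growth, stood at 162 and 29.4 FPKM, and Col12a1, which persists on them and was not called, at 148 and 101 FPKM. Of 6 collagen VI and receptor genes at the floor, 2 were higher at 7 days, Col6a6 (20.3 and 1.21 FPKM) and the receptor gene Antxr1 (122 and 41.8 FPKM), and the median was 0.92. The 3 main chains of collagen VI, the pericellular sleeve of tendon cells, were short of 2-fold, with Col6a1 at 338 and 166 FPKM. Of 12 basement membrane genes at the floor, 6 were higher at 7 days and none at 6 months (median 1.04, and 0.80 with a floor of 1 FPKM). The linker gene Nid2 had the largest ratio (29.4 and 5.69 FPKM, ratio 1.94), and Nid1 (128 and 28.9 FPKM), Col4a1 (158 and 42.5 FPKM) and Lamb1 (45.5 and 13.2 FPKM) were among the others called. Endothelial genes, whose cells make basement membrane, took 0.513% of the FPKM of kept genes at 7 days and 0.135% at 6 months. Much of that share was Fabp4, which adipocytes also use, and without it the shares were 0.184% and 0.0991%. Their part in the result was not tested.

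Elastic fibre genes were called on both sides, more of them at 7 days. Of 20 at the floor, 9 were higher at 7 days and 3 at 6 months (median 0.78). Mfap4, a microfibril-associated glycoprotein gene, stood at 222 and 7.59 FPKM, a ratio of 4.45. Eln, which encodes elastin itself, stood at 147 and 15.8 FPKM. Fbn2, the fibrillin of developing tissue, stood at 21.3 and 1.89 FPKM. Fbn1, the fibrillin that persists in adults, was also higher at 7 days, at 321 and 103 FPKM. The members higher at 6 months included Ltbp2 (3.22 and 24.2 FPKM), a latent TGF-beta binding protein family gene, and Fbln1 (10.2 and 35.7 FPKM). In the tenotomy pools 10 of 20 elastic fibre genes at the floor were higher at 7 days and none at 6 months, where 5.29% of all genes were higher at 7 days and 8.94% at 6 months.

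Small leucine-rich proteoglycans divided by member. Of 12 at the floor, 1 was higher at 7 days and 4 at 6 months (median -0.61). Kera (keratocan) was the member higher at 7 days, at 176 and 44.04 FPKM. Chad (chondroadherin), which binds collagen and integrins, stood at 27.1 and 936 FPKM, a ratio of -5.31, and was the furthest from the centre. Omd (osteomodulin) stood at 4.07 and 37.2 FPKM, Prelp at 62.1 and 187 FPKM and Ecm2 at 14.6 and 33.04 FPKM. The most abundant members were not called: Dcn (decorin) stood at 993 and 1589.9 FPKM, Bgn (biglycan) at 622 and 519.6 FPKM and Fmod (fibromodulin) at 739.6 and 578 FPKM. Chad was also low in both tenotomy pools, at 8.36 and 37.9 FPKM at 7 days and 6 months, so the 6-month sham library stood apart from the other three.

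Other tendon glycoproteins held several members far to the adult side and some on the neonatal side. Of 23 genes, all at the floor, 5 were higher at 7 days and 8 at 6 months (median -0.45). Myoc (myocilin), a secreted glycoprotein (chr1:162639150-162658219, mm10), stood at 11.1 and 894 FPKM, a ratio of -6.46. Clu (clusterin), an extracellular chaperone gene, stood at 24.02 and 664 FPKM, and Prg4, which encodes the surface lubricant lubricin, at 31.9 and 544 FPKM. Comp (cartilage oligomeric matrix protein) stood at 112 and 1443 FPKM and Angptl7, an angiopoietin-like secreted protein gene, at 63.9 and 774 FPKM. Each of these 5 ranked at the 99.6th percentile of kept entries or higher in the 6-month library. Cilp, a matrix protein of cartilage and tendon, stood at 29.4 and 129.6 FPKM and Thbs4 at 302 and 563 FPKM. On the neonatal side, Postn (periostin), a matricellular gene of growing connective tissue, stood at 592 and 133 FPKM. Sparc, a collagen-binding glycoprotein gene, stood at 6162 and 1829 FPKM and Matn4 (matrilin 4) at 32.8 and 1.36 FPKM.

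**Figure D2:**
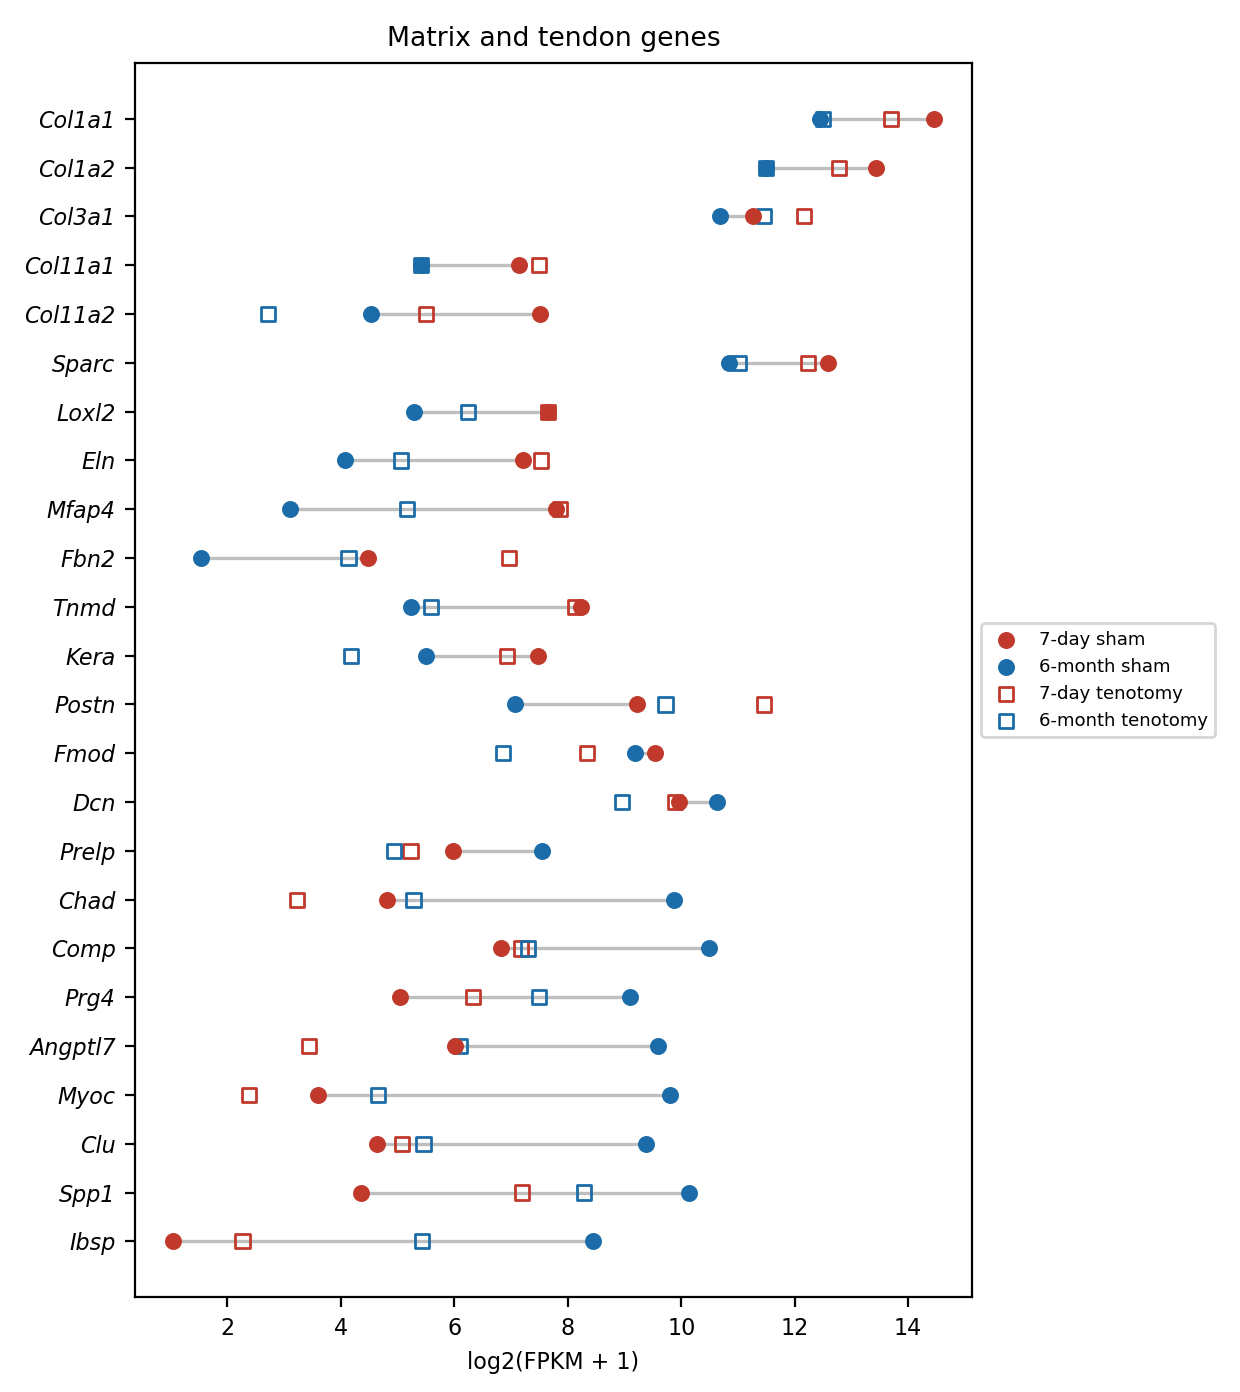
Levels of 24 matrix and tendon genes as log2(FPKM + 1), with filled circles for the sham libraries and open squares for the tenotomy libraries, red at 7 days and blue at 6 months. The grey line joins the sham libraries. Fibrillar collagen, elastic fibre and Tnmd levels are higher in the 7-day sham library than in the 6-month sham library, with Col3a1 within 2-fold. Some of them, such as Col3a1 and Fbn2, are higher still in the 7-day tenotomy library. Chad, Comp, Myoc, Spp1 and Ibsp are highest in the 6-month sham library.

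More proteases were called at 7 days, and more of their inhibitors at 6 months. Of 16 matrix proteases at the floor, 6 were higher at 7 days and 2 at 6 months (median 0.32), against 8.17% and 9.79% of all genes. However, 5 of the 16 reached the floor through the 7-day library alone and 2 through the 6-month library alone. Over all 24 listed, 17 had a ratio above 0, against 47.9% of all entries above 0 in either library. Mmp14, the membrane-bound collagenase, stood at 108 and 36.8 FPKM, and Adamts15, a proteoglycan-cleaving enzyme, at 10.5 and 2.52 FPKM. Mmp2 (gelatinase A) was alike, at 109.5 and 93.8 FPKM. Mmp3 (stromelysin) was on the adult side, at 0.232 and 10.4 FPKM. Of 14 protease inhibitors at the floor, 7 were higher at 6 months and 1 at 7 days (median -0.76), and 3 reached the floor through the 6-month library alone. Over all 19 listed, 3 had a ratio above 0. Cst3 (cystatin C), an inhibitor of cathepsins, stood at 286 and 1638 FPKM. Serpine2, an inhibitor of thrombin and plasminogen activators, stood at 28.9 and 168 FPKM and Timp3, a matrix-bound metalloproteinase inhibitor, at 71.5 and 180.2 FPKM. Itih5, which stabilises hyaluronan, was the member higher at 7 days, at 55.8 and 7.19 FPKM. Of 7 hyaluronan and versican genes at the floor, 3 were higher at 7 days, among them the synthase gene Has2 (5.27 and 1.37 FPKM) and the receptor gene Cd44 (60.8 and 23.9 FPKM), and 1 was higher at 6 months.

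Sheath and surrounding fibroblast genes held members on both sides. Of 11 sheath and synovial genes at the floor, 3 were higher at 7 days and 1 at 6 months (median 0.36). Tppp3, the marker of sheath progenitors in this series, stood at 227 and 58.99 FPKM, a ratio of 1.68, and Sema3c, a guidance factor gene, at 147 and 38.6 FPKM. Prg4, made by the sheath lining, was the member higher at 6 months, as given above. Of 15 adventitial fibroblast genes at the floor, 4 were higher at 7 days and 2 at 6 months (median 0.30). Dpt (dermatopontin) stood at 226 and 55.6 FPKM and Fndc1 at 196 and 70.3 FPKM, while Pdgfra, a receptor gene of mesenchymal progenitors, stood at 38.5 and 31.1 FPKM and Gsn (gelsolin) at 259.6 and 453 FPKM. Connective tissue was left off the tenotomy stumps, and the labels do not say how much stayed on the sham tendons.

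Imprinted growth genes were higher in the neonatal library. All but 1 of 23 imprinted genes reached the floor, 17 were higher at 7 days and none was higher at 6 months, against 8.17% and 9.79% of all genes. Of these, 7 reached the floor through the 7-day library alone. Over all listed members, 20 of 23 had a ratio above 0, as did 7538 of the 15730 kept entries above 0 in either sham library (47.9%). Igf2, which encodes insulin-like growth factor 2 (chr7:142650768-142670356, mm10), stood at 858 and 7.96 FPKM, 80.9-fold higher at 7 days. It ranked at the 99.9th percentile of kept entries in the 7-day library and at the 72.3rd in the 6-month library. H19, the noncoding RNA gene beside it (chr7:142575532-142578146), stood at 1622 and 108 FPKM. H19 stood above Igf2 per length in both sham libraries. Dlk1, a membrane protein gene of progenitors related to the Notch ligands, stood at 46.5 and 0.144 FPKM, and the value in adults is below that of 3 fragments on a 2 kb transcript.

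Mest, a network gene of growing mesenchyme, stood at 105 and 5.58 FPKM, and Plagl1, a zinc finger regulator of the network, at 38.1 and 1.65 FPKM. Rian (266 and 19.4 FPKM) and Meg3 (141 and 39.6 FPKM) are noncoding RNAs of the Dlk1 domain, and both were higher at 7 days. Genes that restrain growth were on the same side: Cdkn1c, a cyclin-dependent kinase inhibitor, stood at 139.9 and 14.6 FPKM and Grb10, an adaptor that dampens insulin and IGF signalling, at 117 and 23.2 FPKM. Gnas, which encodes the stimulatory G protein subunit, stood at 1003 and 569 FPKM and lay within 2-fold. In the tenotomy pools 13 of 20 imprinted genes at the floor were higher at 7 days and 1 at 6 months, and Mest stood at 754 and 79.6 FPKM there. Igf2 stood at 1226 and 41.1 FPKM in those pools, so its adult level was higher after tenotomy than after sham while the neonatal level stayed far above it.

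Growth regulators outside the imprinted group included several that were low or listed at 0 in adults. Of 20 listed, 7 reached the floor, 6 of them through the 7-day library alone, and of the 18 above 0 in either library 12 had a ratio above 0, against 47.9% of all such entries. Mdk (midkine), a heparin-binding growth factor gene of fetal tissue, stood at 27.7 FPKM at 7 days and is listed at 0 at 6 months. Ptn (pleiotrophin), its relative, stood at 36.6 and 3.35 FPKM, and Gpc3, a cell-surface proteoglycan gene that limits body growth, at 44.6 and 0.805 FPKM. The fetal RNA-binding genes Lin28a and Lin28b did not reach the floor, nor did Hmga2. In the IGF axis, 5 of 14 genes at the floor were higher at 7 days and 1 at 6 months (median 0.33). Igf1, the growth factor of postnatal life, stood at 151 and 21.2 FPKM, and its binding protein genes Igfbp3 at 71.4 and 6.19 FPKM and Igfbp4 at 442 and 127 FPKM. Irs2, an adaptor of the insulin receptor, was the member higher at 6 months, at 6.27 and 13.8 FPKM.

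**Figure D3:**
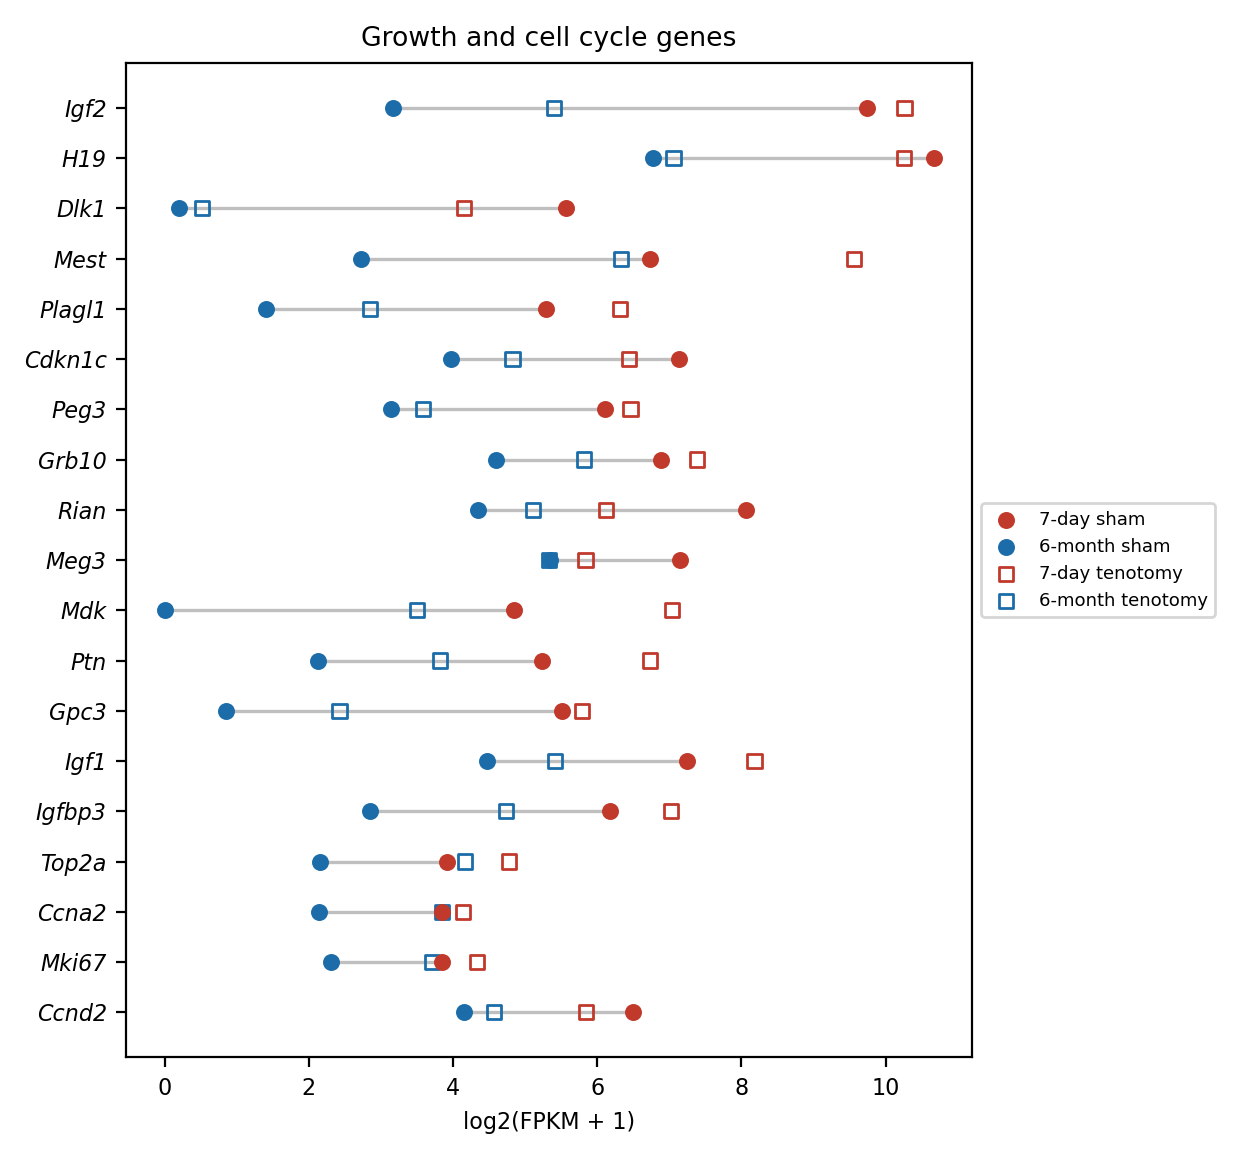
Levels of 19 growth and cell cycle genes as log2(FPKM + 1), with filled circles for the sham libraries and open squares for the tenotomy libraries, red at 7 days and blue at 6 months. Each filled red circle lies to the right of the filled blue one. In the tenotomy libraries Top2a, Ccna2 and Mki67 lie close together, whereas Igf2, H19 and Dlk1 stay apart by age.

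Genes of dividing cells were higher in the neonatal library and low in both. Of 40 mitosis genes, 17 reached the floor, 16 of them through the 7-day library alone, so the 12 called higher at 7 days carry little weight by themselves. Over all 40, 38 had a ratio above 0, and the summed level was 217 FPKM at 7 days and 69.5 FPKM at 6 months. Mki67, the proliferation antigen Ki-67, stood at 13.4 and 3.94 FPKM, Top2a, the topoisomerase that untangles chromosomes, at 14.2 and 3.43 FPKM, and the mitotic cyclin gene Ccnb2 at 8.57 and 1.24 FPKM. The summed level of 39 DNA replication genes differed less, 285 and 155 FPKM, and 33 of them had a ratio above 0. In the tenotomy pools none of 33 mitosis genes at the floor passed 2-fold between the ages, with sums of 360 and 243 FPKM. Of 17 genes of D-type cyclins and kinase inhibitors at the floor, 6 were higher at 7 days and 1 at 6 months. Ccnd2 (89.5 and 16.8 FPKM) and Ccnd1 (29.7 and 10.3 FPKM), which carry growth signals into the cycle, were among the former, and Ccng1 (93.3 and 211 FPKM), a p53 target, was the latter. Chromatin genes that are abundant in cycling cells showed the same direction, with 9 of 26 higher at 7 days and none at 6 months (median 0.81). Hmgn2, a nucleosome-binding protein gene, stood at 130.4 and 35.7 FPKM and Stmn1, a microtubule regulator gene, at 38.9 and 7.07 FPKM. Of 68 clustered histone entries, 44 reached the floor, 31 were higher at 7 days and none at 6 months, although reads cannot be split with certainty between these near-identical copies.

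Mitosis genes are known to share a pair of promoter elements, the CCAAT box bound by NF-Y and the cell cycle gene homology region TTTGAA bound by the complexes that silence these genes in resting cells. The promoters of Ccnb2, Top2a and Mki67 are shown as examples of mitosis genes called higher at 7 days that can be read for both elements. Each runs 5′ to 3′ on the gene's minus strand from 250 bases before to 50 bases after the RefSeq start (GRCm38.p6), with CCAAT and TTTGAA on either strand in capitals (ATTGG and TTCAAA on the other strand), and no capitals overlap between motifs. They lie at chr9:70421505-70421804, chr11:99024140-99024439 and chr7:135716330-135716629.
Ccnb2: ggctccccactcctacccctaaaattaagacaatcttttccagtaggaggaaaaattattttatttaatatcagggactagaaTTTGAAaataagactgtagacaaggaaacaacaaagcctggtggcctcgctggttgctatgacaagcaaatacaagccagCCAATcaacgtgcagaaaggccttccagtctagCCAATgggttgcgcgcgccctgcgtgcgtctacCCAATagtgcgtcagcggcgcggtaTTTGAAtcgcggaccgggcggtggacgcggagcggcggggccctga
Top2a: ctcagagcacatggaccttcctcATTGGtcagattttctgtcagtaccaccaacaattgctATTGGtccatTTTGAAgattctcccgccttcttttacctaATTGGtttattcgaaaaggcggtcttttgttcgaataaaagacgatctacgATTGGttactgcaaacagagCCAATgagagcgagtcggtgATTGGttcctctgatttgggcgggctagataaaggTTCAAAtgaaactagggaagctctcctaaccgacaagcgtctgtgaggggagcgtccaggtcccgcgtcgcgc
Mki67: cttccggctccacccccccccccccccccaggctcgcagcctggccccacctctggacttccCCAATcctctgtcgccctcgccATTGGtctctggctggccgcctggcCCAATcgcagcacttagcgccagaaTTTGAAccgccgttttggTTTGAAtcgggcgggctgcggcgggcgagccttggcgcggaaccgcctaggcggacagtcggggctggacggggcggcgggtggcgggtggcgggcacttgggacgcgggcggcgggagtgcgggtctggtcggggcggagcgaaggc
The Ccnb2 window held 3 CCAAT and 2 TTTGAA matches, the Top2a window 6 and 2, and the Mki67 window 3 and 2. Both motifs were found in 24 of the 35 mitosis promoters in the table (68.6%), in 12.9% of 31 DNA replication promoters and in 7.12% of all 27025 promoters of the same length. These are letter matches and not measured binding.

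Signalling pathways differed less than growth genes, and only their transcripts were measured. The series asks about PI3K and Akt, which relay growth factor and insulin signals. Of 31 pathway genes at the floor none was higher at 7 days, 3 were higher at 6 months and 28 lay within 2-fold. Over all genes, 8.17% were higher at 7 days and 9.79% at 6 months, so the 3 calls are near the share of all genes. They give no direction for the pathway. Akt1 stood at 113 and 51.9 FPKM (ratio 0.87), Akt2 at 60.4 and 76.7 FPKM and the catalytic subunit gene Pik3ca at 17.2 and 11.7 FPKM. The median was -0.11 and turned to 0.14 without centring, so it has no direction of its own. The 3 members higher at 6 months were Ddit4 (12.99 and 65.7 FPKM) and Tsc1 (6.39 and 12.98 FPKM), which restrain mTOR signalling, and Foxo4 (14.1 and 34.3 FPKM), a transcription factor that Akt keeps out of the nucleus. Ddit4 is also induced by glucocorticoids, whose targets are described below.

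The small counts of the next pathways stand beside 8.17% of all genes higher at 7 days and 9.79% at 6 months. No direction is drawn from them for a pathway. Among TGF-beta genes, 2 of 21 were higher at 7 days and 3 at 6 months, with a median of -0.00 whose sign changed with the scaling. Tgfb1 stood at 14.5 and 29.9 FPKM and Tgfb3, the isoform of tendon development, at 47.7 and 56.1 FPKM. Mstn (myostatin), a member of the family made by muscle, stood at 3.004 and 16.8 FPKM, beside the muscle share given below. BMP genes divided evenly, with 2 of 17 called on each side (median -0.28), Bmp3 at 8.33 and 0.191 FPKM and Bmp2 at 3.70 and 14.1 FPKM. Of 19 Wnt genes, 3 were higher at 7 days and 2 at 6 months, with Wnt5a at 8.46 and 1.47 FPKM and the secreted inhibitor genes Wif1 at 62.2 and 19.02 FPKM and Frzb at 7.95 and 24.9 FPKM. The hedgehog co-receptor gene Cdon (51.7 and 18.6 FPKM) was the 1 of 6 hedgehog genes called, on the neonatal side. FGF and PDGF genes were called 3 and 3 of 18, with Pdgfd at 8.85 and 1.04 FPKM and Pdgfc at 6.76 and 14.3 FPKM on opposite sides. Among 16 CCN and YAP-TAZ targets, 3 were called on each side. Nov (104 and 11.5 FPKM) and Wisp1 (15.8 and 2.54 FPKM) were higher at 7 days, and Ctgf (116 and 244 FPKM) and Ankrd1 (3.08 and 23.02 FPKM) at 6 months. Hox genes, which hold position along the limb, gave 1 and 2 calls of 9, with Hoxa10 at 24.4 and 6.06 FPKM and Hoxc10 at 13.5 and 27.8 FPKM.

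Genes induced by glucocorticoids were higher in the adult library. Of 18 at the floor, 12 were higher at 6 months and none at 7 days (median -1.86). Fkbp5, a chaperone of the glucocorticoid receptor and a sensitive target of it, stood at 3.84 and 39.8 FPKM, a ratio of -3.32. Tsc22d3 (GILZ) stood at 47.3 and 229 FPKM, Zbtb16 at 9.82 and 58.8 FPKM and the serum and glucocorticoid kinase gene Sgk1 at 35.7 and 93.8 FPKM. The metallothionein genes Mt1 (17.8 and 87.9 FPKM) and Mt2 (14.1 and 81.4 FPKM), which bind zinc and also answer to metals, were on the same side. Not every target followed: Cdkn1a had a ratio of 0.07, Errfi1 of -0.00 and Per1 of -0.13. In the tenotomy pools 6 of 16 were higher at 6 months and none at 7 days. Muscle also expresses some of these genes, such as Pdk4 (73.7 and 161 FPKM), and its share of the libraries, given below, was higher at 6 months too. Its part in the result was not tested.

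Clock genes were called on the adult side alone, 5 of 16 (median -0.74). Per2, a repressor of the clock, stood at 4.05 and 14.8 FPKM, and the output gene Nfil3 at 11.00 and 32.5 FPKM. The core activator genes Arntl and Clock were within 2-fold. The hour of sampling is not given in the labels. Of 33 antioxidant and detoxifying genes at the floor, 10 were higher at 6 months and 2 at 7 days (median -0.56), against 9.79% and 8.17% of all genes. However, 6 of the 33 reached the floor through the 6-month library alone and 1 through the 7-day library alone. Of the 34 listed genes above 0 in either library, 11 had a ratio above 0, against 47.9% of all such entries. Gpx3, the secreted glutathione peroxidase, stood at 8.72 and 312 FPKM, a ratio of -5.25, and Nqo1, a target of Nrf2, at 2.47 and 11.5 FPKM. In the tenotomy pools Gpx3 stood at 109 and 241 FPKM, so the 7-day sham library held the lowest value of the 4. On the neonatal side stood Gpx7 (36.8 and 8.18 FPKM), a peroxidase of the endoplasmic reticulum. Immediate early genes, which report recent stimulation, were called 1 and 4 of 21, with Atf3 at 28.3 and 9.68 FPKM and Cebpd at 7.95 and 35.8 FPKM.

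Several mineralisation genes were higher in the adult library without a full set of bone markers. Of 10 bone-list genes at the floor, 5 were higher at 6 months and 3 at 7 days, against 9.79% and 8.17% of all genes. However, 3 of the 10 reached the floor through the 6-month library alone and 2 through the 7-day library alone, so the counts carry little weight by themselves. Of the 19 listed genes above 0 in either library, 8 had a ratio above 0, against 47.9% of all such entries. Ibsp, which encodes bone sialoprotein (chr5:104299287-104311472, mm10), stood at 1.06 and 348 FPKM, the lowest ratio of all 9224 genes (-7.65). Spp1 (osteopontin) stood at 19.4 and 1131 FPKM, the phosphatase genes Alpl at 1.45 and 16.1 FPKM and Phospho1 at 0.869 and 6.16 FPKM, and the pyrophosphate transporter gene Ank at 28.5 and 68.1 FPKM. Defining osteoblast genes did not follow. Sp7, the osteoblast transcription factor, stood at 0.357 and 1.06 FPKM, below the floor, and the osteocalcin genes Bglap (21.7 and 3.93 FPKM) and Bglap2 (13.03 and 2.01 FPKM), near-identical copies, were higher at 7 days. Col1a1 is also on this list and was on the neonatal side. Ibsp stood at 3.81 and 41.9 FPKM and Spp1 at 146 and 311 FPKM in the tenotomy pools, with the adult value again the higher.

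Cartilage genes were called on both sides, more of them in adults. Of 13 at the floor, 8 were higher at 6 months and 2 at 7 days (median -1.26, and -0.96 with a floor of 1 FPKM). Over all genes, 9.79% were higher at 6 months and 8.17% at 7 days. However, 4 of the 13 reached the floor through the 6-month library alone. Of the 19 listed genes above 0 in either library, 8 had a ratio above 0, against 47.9% of all such entries. The defining matrix genes Acan (37.2 and 30.5 FPKM) and Col2a1 (110.3 and 76.97 FPKM) lay within 2-fold. Other matrix genes of the list did not, with Comp and Chad, given above, on the adult side and Col11a1 and Col11a2 on the neonatal side. Cytl1, a secreted factor gene of chondrocytes, stood at 0.474 and 71.3 FPKM, and Clec3a, a lectin gene of cartilage, at 135 and 820.3 FPKM. The cartilage transcription factor genes Sox9 (3.41 and 7.88 FPKM) and Sox6 (7.34 and 22.5 FPKM) were higher at 6 months, and Sox6 is also used by fast muscle fibres. Other cartilage genes such as Matn1, Epyc and the type IX collagens did not reach the floor in either library.

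**Figure D4:**
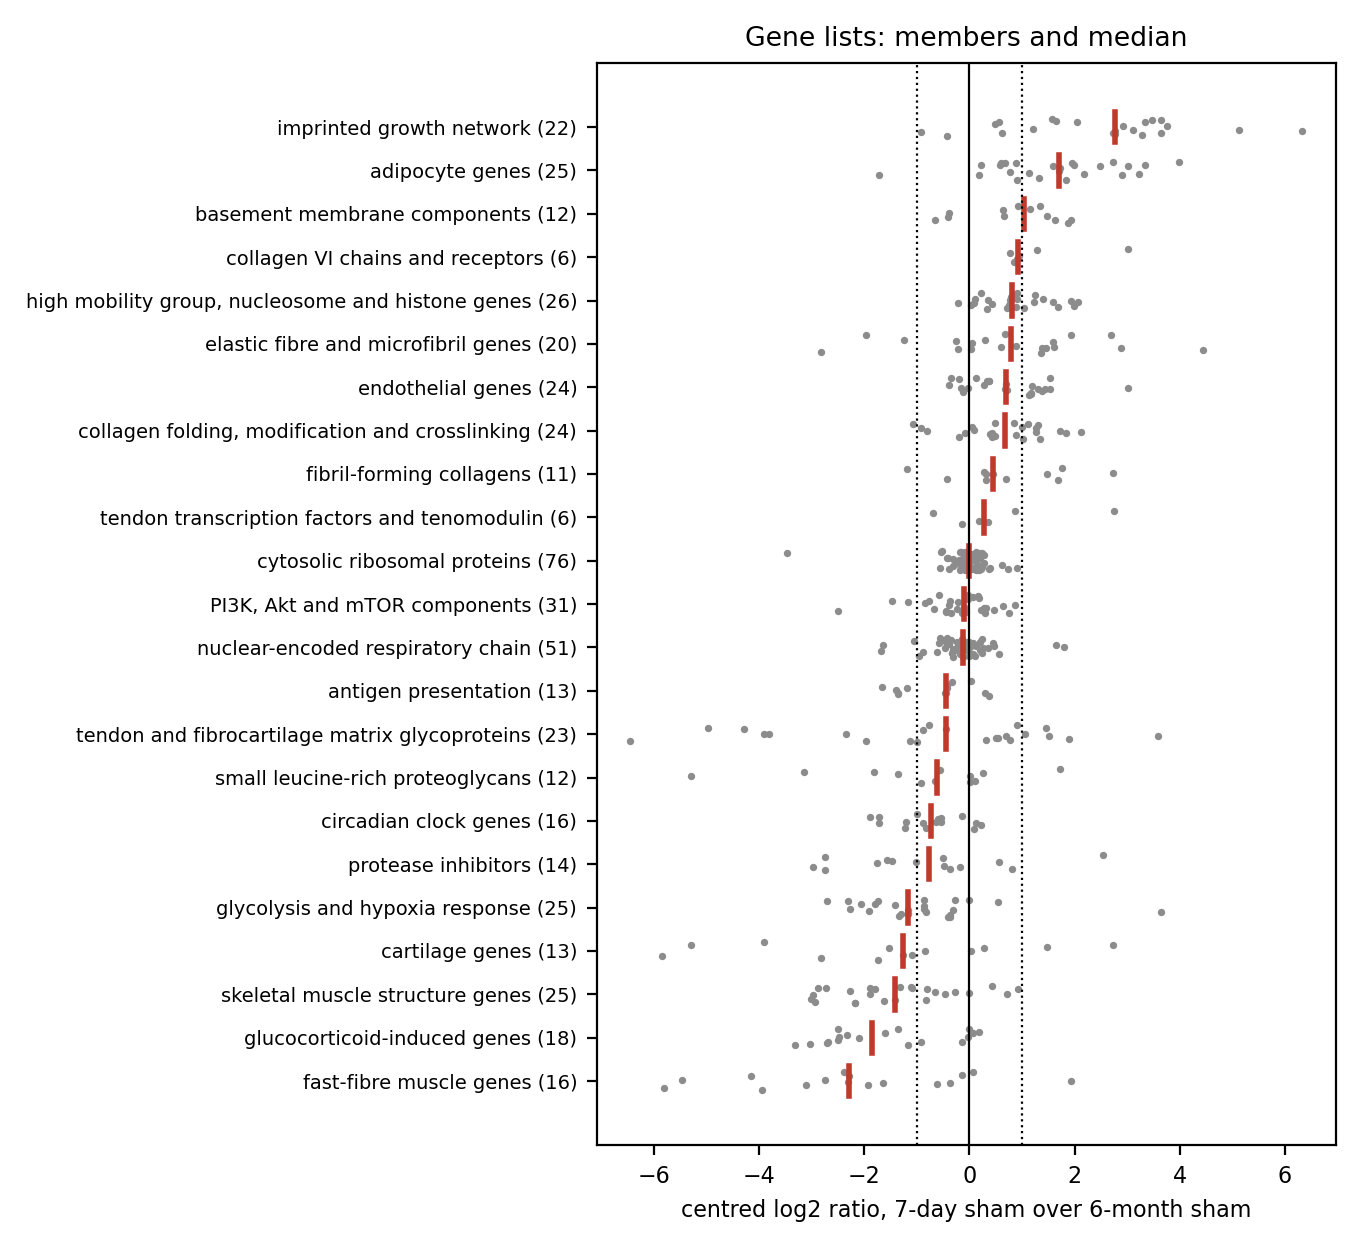
Centred log2 ratio of each gene at the floor (grey points) for 23 gene lists, with the list median as a red bar and the number of genes in parentheses. The solid line is the centre of all genes and the dotted lines mark 2-fold. The imprinted and adipocyte lists lie on the neonatal side, ribosomal and respiratory chain lists at the centre, and glucocorticoid-induced, cartilage and muscle lists on the adult side.

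Skeletal muscle transcripts were present in both sham libraries and differed in amount and in kind. The 56 genes of mature muscle took 7.95% of the FPKM of kept genes at 7 days and 18.1% at 6 months after sham. They took 0.0802% and 6.94% in the tenotomy libraries. Acta1, the skeletal actin gene, stood at 6925 and 9234 FPKM. Of 16 fast-fibre genes, 11 were higher at 6 months and 1 at 7 days (median -2.30), with Pvalb, the calcium buffer of fast fibres, at 185 and 2791 FPKM and Actn3 at 140.5 and 1847 FPKM. Slow-fibre genes were called 4 of 14 at 6 months and 2 at 7 days (median -0.80), among them Mb (myoglobin) at 294 and 1185 FPKM.

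The myosin heavy chain genes, each used by its own kind of fibre, were expressed in different proportions in the 2 libraries. Myh8, the perinatal chain (chr11:67277124-67308633, mm10), stood at 233 and 0.280 FPKM, the highest ratio of all 9224 genes (7.27). Myh3, the embryonic chain, stood at 80.5 and 6.24 FPKM. Myh4, the chain of the fastest adult fibres (chr11:67237812-67260447), stood at 61.2 and 2962 FPKM, a ratio of -5.82. As shares of the summed FPKM of 6 chains, Myh4 held 3.39% at 7 days and 78.3% at 6 months. Myh1 held 48.1% and 5.02%, Myh2 19.5% and 7.50%, Myh8 12.9% and 0.00741%, and Myh3 4.46% and 0.165%. The slow chain Myh7 held 11.7% and 9.02%. Of 11 genes of developing muscle at the floor, Myh8 and Myh3 included, 5 were higher at 7 days and 3 at 6 months (median -0.01, with a sign that changed with the scaling). On the neonatal side were Actc1, the cardiac actin of immature fibres, at 104 and 8.37 FPKM and Myog, which drives muscle differentiation, at 15.05 and 1.73 FPKM. On the adult side were Mstn, given above, Des (desmin), an intermediate filament gene that mature fibres keep, at 550.4 and 1733 FPKM and the myogenic factor gene Myf6.

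Promoters of the perinatal and the adult chain are shown because these neighbouring genes on chromosome 11 had the highest ratio and a ratio near the lowest. Both run 5′ to 3′ on the plus strand over the same window as above (GRCm38.p6), at chr11:67276874-67277173 and chr11:67237562-67237861. Capitals mark TATAAA on either strand (TTTATA on the other) and the E-box CANNTG, the kind of site that myogenic factors such as Myog bind, and no capitals overlap.
Myh8: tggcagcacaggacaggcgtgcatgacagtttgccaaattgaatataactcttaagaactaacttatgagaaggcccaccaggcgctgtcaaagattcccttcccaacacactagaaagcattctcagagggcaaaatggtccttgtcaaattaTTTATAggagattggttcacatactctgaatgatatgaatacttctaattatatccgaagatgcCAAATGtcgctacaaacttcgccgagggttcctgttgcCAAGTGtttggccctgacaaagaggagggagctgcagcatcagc
Myh4: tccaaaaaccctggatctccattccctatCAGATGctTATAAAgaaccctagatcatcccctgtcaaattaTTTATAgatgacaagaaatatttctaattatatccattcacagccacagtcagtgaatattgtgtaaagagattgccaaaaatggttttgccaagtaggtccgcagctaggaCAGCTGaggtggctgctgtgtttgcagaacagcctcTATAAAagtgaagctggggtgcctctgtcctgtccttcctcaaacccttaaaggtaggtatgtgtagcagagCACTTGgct
The Myh8 window held 1 TATAAA and 2 CANNTG matches and the Myh4 window 3 of each. TATAAA was found in 14.2% of all 27025 promoters and CANNTG in 72.2%, so a CANNTG match is common in any such window.

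Glycolysis genes were higher in the adult library, whereas respiratory chain genes were mostly alike. Of 25 glycolysis and hypoxia genes at the floor, 13 were higher at 6 months and 1 at 7 days (median -1.16, and -0.88 with muscle genes left out). Aldoa, the aldolase of muscle and many tissues, stood at 983 and 5451 FPKM, the hexokinase gene Hk2 at 12.6 and 54.6 FPKM and Ldha (lactate dehydrogenase) at 335 and 944 FPKM. Car9, a hypoxia-induced carbonic anhydrase gene, was the member higher at 7 days, at 23.2 and 0.630 FPKM. The muscle share was higher in the same library, as given above, and its part in these levels was not tested. Of 51 nuclear-encoded respiratory chain genes, all at the floor, 46 lay within 2-fold, 2 were higher at 7 days and 3 at 6 months, and the sign of their median changed with the scaling. The 5 called genes included both members of 2 isoform families. Cox6a1 (136 and 36.1 FPKM) and Cox8a (167 and 39.6 FPKM), the isoforms of most tissues, were higher at 7 days. Cox6a2 (64.7 and 176 FPKM) and Cox8b (199 and 531 FPKM), the isoforms of muscle, were higher at 6 months. The muscle form made up 32.2% of Cox6a and 54.4% of Cox8 at 7 days, and 83.0% and 93.1% at 6 months. Cytosolic ribosomal protein genes served as a reference: of 76, 75 lay within 2-fold (median -0.01, with a sign that changed with the scaling), and the exception was Rpl30.

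**Figure D5:**
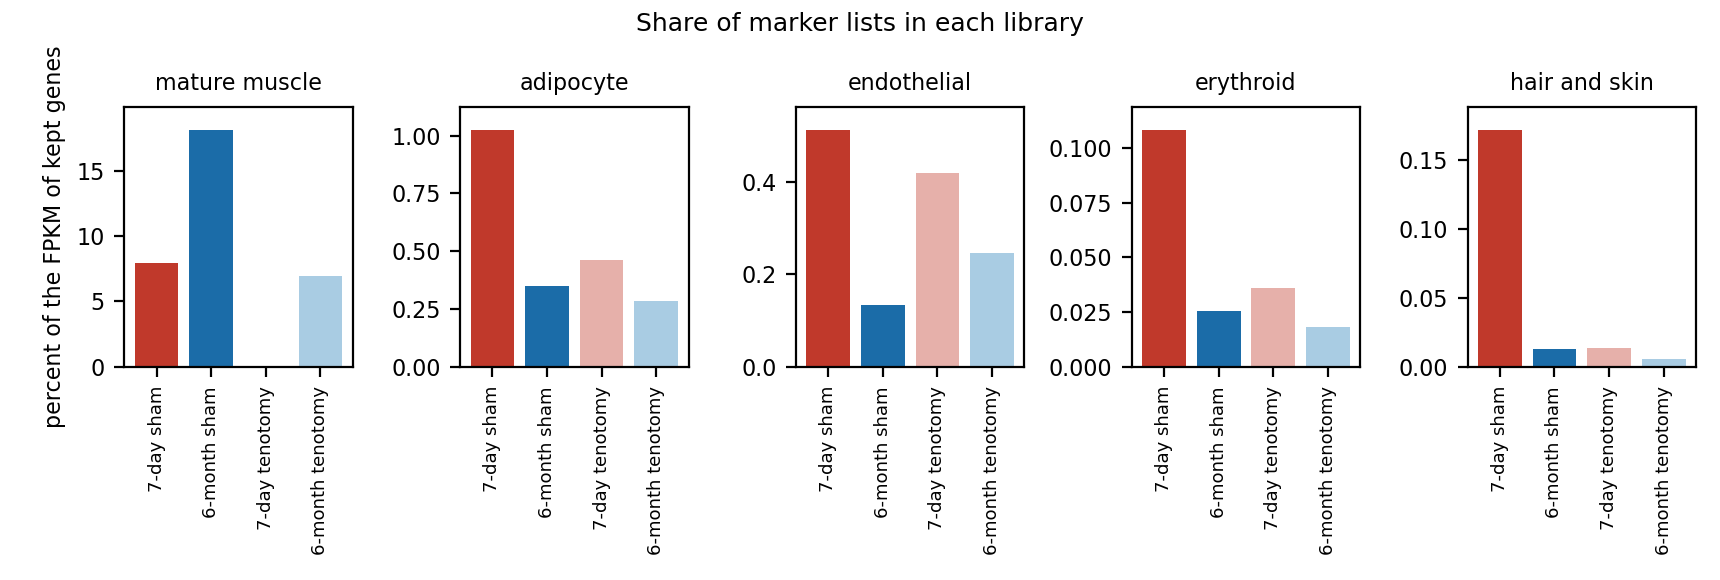
Share of the FPKM of kept genes taken by 5 marker lists in each of the 4 libraries, in percent, with a separate scale for each list. The erythroid list leaves out the globin entry Beta-s, and the hair and skin list leaves out some keratin-associated entries. Mature muscle is highest in the 6-month sham library and close to 0 in the 7-day tenotomy library, and the adipocyte, erythroid and hair and skin shares are highest in the 7-day sham library. The endothelial share is highest there too, but without Fabp4 it is 0.184% there and 0.279% in the 7-day tenotomy library.

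Adipocyte genes were higher in the neonatal library. Of 25 at the floor, 16 were higher at 7 days and 1 at 6 months (median 1.70). The lipid droplet gene Plin1 stood at 74.8 and 3.01 FPKM, the adipokine genes Adipoq at 129 and 10.7 FPKM and Lep (leptin) at 9.77 and 0.363 FPKM, and Fabp4, a fatty acid binding protein gene also used by capillaries, at 1232 and 127 FPKM. Me1, a malic enzyme gene, was the member higher at 6 months. The list took 1.02% and 0.347% of the FPKM of kept genes, and 0.464% and 0.286% in the tenotomy libraries. Without Fabp4 it took 0.695% and 0.311% in the sham libraries.

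Some vessel genes were also higher at 7 days. Of 24 endothelial genes at the floor, 10 were higher at 7 days and none at 6 months (median 0.69). Cdh5, the junction cadherin gene, stood at 39.97 and 11.7 FPKM, Pecam1 at 53.3 and 18.99 FPKM, Kdr, the VEGF receptor gene, at 15.2 and 5.08 FPKM, and the lymphatic regulator gene Prox1 at 7.31 and 1.69 FPKM. Vwf, Flt1 and Egfl7 were within 2-fold, so these markers did not differ by a common factor. Of 14 smooth muscle and pericyte genes, 3 were higher at 7 days and 1 at 6 months, with Acta2, the smooth muscle actin gene, at 51.2 and 10.5 FPKM and the pericyte gene Rgs5 at 93.3 and 32.7 FPKM. The median of that list, 0.20, turned to -0.05 with a floor of 20 FPKM.

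Immune genes went both ways by cell type. Mast cell protease genes were higher at 7 days, with Cma1 at 35.7 and 1.89 FPKM, Mcpt4 at 24.6 and 1.40 FPKM, Tpsb2 at 16.6 and 0.622 FPKM and Cpa3 at 15.7 and 0.442 FPKM. These 4 reached the floor through the 7-day library alone, and all 10 of the listed mast cell genes above 0 had a ratio above 0. They were higher at 7 days in the tenotomy pools too, with Cma1 at 61.8 and 1.87 FPKM. Of 27 macrophage genes at the floor, 6 were higher at 6 months and 2 at 7 days (median -0.45). The general markers Csf1r (33.5 and 24.03 FPKM), C1qa (43.00 and 50.1 FPKM) and Cd68 (7.73 and 3.42 FPKM) lay within 2-fold, while Ccr2 (4.19 and 11.8 FPKM), a receptor of recruited monocytes, and Trem2 (4.55 and 10.5 FPKM) were higher at 6 months. Of 13 antigen presentation genes at the floor, 5 were higher at 6 months and none at 7 days (median -0.45). The class II genes H2-Ab1 (13.4 and 37.3 FPKM), H2-Aa (19.5 and 38.2 FPKM), H2-Eb1 (9.35 and 21.9 FPKM) and Cd74 (33.4 and 73.7 FPKM) were 4 of these, and the class I gene H2-T23 (10.9 and 24.8 FPKM) was the other. The class I genes H2-K1 (50.03 and 52.9 FPKM) and B2m (153 and 98.9 FPKM) were not called.

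Complement genes gave 4 calls at 6 months and 1 at 7 days among 18 (median -0.54). C3, the central component, stood at 21.2 and 93.8 FPKM. C7, a membrane attack component gene, is listed at 0 at 7 days and stood at 27.4 FPKM at 6 months. Cfd (adipsin), which adipocytes make, was the member higher at 7 days, at 229.8 and 33.6 FPKM, beside the adipocyte share. No lymphocyte gene reached the floor, and Sox10, a marker of Schwann cells, stayed below it in both libraries.

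Several hair and blood transcripts were higher in the neonatal library. Of 25 hair and skin genes at the floor, 22 were higher at 7 days and 1 at 6 months, but 23 reached the floor through the 7-day library alone, so the count carries little weight by itself. Of the 40 above 0 in either library, 36 had a ratio above 0. The hair keratin gene Krt33b stood at 32.5 FPKM at 7 days and is listed at 0 at 6 months, whereas the basal skin keratin gene Krt14 stood at 10.4 and 14.04 FPKM. Keratin-associated proteins, the matrix of the hair shaft, summed to 1107 FPKM over 52 entries at 7 days and to 0 at 6 months, and to 34.7 and 0 FPKM in the tenotomy pools. These short, near-identical genes share reads. The haemoglobin gene Hba-a2 stood at 200.1 and 0.135 FPKM and Alas2, the first enzyme of haem synthesis in red cells, at 25.2 and 3.49 FPKM, with the same reservation for the globin copies. Of 8 erythroid genes at the floor, 4 were higher at 7 days, 3 of the 8 reached the floor through that library alone, and 1 was higher at 6 months, Tmcc2 (8.61 and 20.1 FPKM). The median of the 8, 0.78, turned to -0.50 with single-gene entries of status OK and to -0.06 with muscle genes left out, so no direction is given for the list. The hair and skin list made up 0.172% and 0.0127% of the FPKM of kept genes, and the erythroid list 0.108% and 0.0254%. Both lists are partial. In the 7-day sham library the hair and skin list summed to 644 FPKM, below the 1107 FPKM of all keratin-associated entries. The erythroid list summed to 405 FPKM there and leaves out the globin entry Beta-s, which alone stood at 1007 FPKM.

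Differences between the ages were set beside those of the tenotomy pools, which were other libraries of the same series and may hold the same mice. Of 9118 genes at the floor there, 482 (5.29%) were higher at 7 days and 815 (8.94%) at 6 months. Of the 754 genes higher at 7 days after sham, 607 reached the floor after tenotomy, and 213 were higher at 7 days there too, while 22 were on the opposite side. Of the 903 higher at 6 months after sham, 709 reached the floor after tenotomy, 365 were higher at 6 months there and 7 were opposite. The 213 are part of 482 and the 365 part of 815. Myh8 and Actc1 are examples of genes on opposite sides, with Myh8 at 1.69 and 13.1 FPKM and Actc1 at 5.35 and 49.7 FPKM in the 7-day and 6-month tenotomy pools, where the muscle share was 0.0802% and 6.94%.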

How the data were processed

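RNA of 4 pools of mouse Achilles tendon, 1 per group, was sequenced as paired 75-base reads on a MiSeq from 10 ng of RNA with integrity values below 8, after ribosomal RNA depletion with a directional kit, per the labels' protocols. TopHat, Cufflinks and mm10 are named, without versions, per the submitters' processing notes. For the annotation, the settings, the use of strand and any scaling between libraries, nothing is stated in the sources used here. The authors deposited 2 gene tables, 1 per age, whose values were taken as FPKM from their layout and range. The fold changes, p-values and q-values in those tables compare tenotomy with sham and were not used.

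The 7-day and 6-month sham columns were joined by gene name, with a pseudocount of 1 FPKM, a floor of 5 FPKM in either library and centring on the median ratio. No test was made, since each group is 1 pool. Entries listed at an exact 0 were kept, and through the pseudocount they count in the ratios, calls and list medians. Of the entries at the floor, 13 were at 0 in neonates and 69 in adults after sham. Isg15 and C7 are examples of calls that rest on such a 0. Depth was worked out from FPKM steps of genes of at least 800 bp, where 75.6% of 569 genes and 73.8% of 531 came out within 0.1 of whole fragments in the 7-day and 6-month sham libraries. By counting error alone (95% Poisson interval), 24 fragments stand for 15.4 to 35.7 and 16 for 9.15 to 26.0. Small RNA entries, which were left out, took 28.6% and 41.3% of all FPKM.

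The comparison, the 58 gene lists and their members were chosen with earlier results of these data known; 1321 of 1356 symbols were found. Genes named are the 20 highest and 20 lowest ratios among single-gene entries at 10 FPKM or more, from each list the up to 6 genes furthest past 2-fold and the up to 4 most abundant ones, the cell type markers and 15 genes given whatever their values. A few of the genes so chosen are not reported here. Further genes (Myh1, Myh7, Cilp, Gpx7, Ank, Lox, Grb10, Meg3, Postn, Cdkn1a, Errfi1, Per1 and those named without a value) were chosen after their values were seen. Deposited starts count from 0 and were converted to count from 1. Promoter sequences are from RefSeq (GRCm38.p6). The 12 alternatives varied the floor, the pseudocount, the centring, which entries and muscle genes were kept, and the call. Scripts ran under Python 3.11.15, with matplotlib 3.10.9 for figures and SciPy 1.17.1, pandas 2.3.3 and NumPy 2.4.6 for values.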

Additional observations from a re-analysis of the deposited data

How the results depend on the processing

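Main counts were 754 genes higher at 7 days and 903 at 6 months. With a pseudocount of 5 FPKM they were 405 and 530, with a floor of 20 FPKM 352 and 477, and without centring 1192 and 601. With no floor, 1156 genes were higher at 7 days. Over the other alternatives the counts ranged from 506 to 1115 and from 661 to 1287. Calls were 45.5% neonatal as reported, 66.5% without centring, 61.9% with a common sum over kept genes and 49.8% with a common upper quartile. Where no value is printed, the cause of a difference between settings was not tested. Over all alternatives, 4507 results for named genes kept their call or stayed uncalled, 205 lost the call, and 20 gained it. Uncalled ratios close to 0 can change sign and still be counted among the 4507. Of the lost calls 105 came from ranks, which are compressed among abundant genes. Of the genes named, Col27a1, Gsn, H2-Aa, Hoxc10, Irf7, Pdgfc, S100a9, Tgfb1, Thbs4 and Tsc1 lost their call without centring, and low genes such as Mki67, Top2a, Ccnb2, Has2 and Isg15 lost it with a pseudocount of 5 FPKM. For list medians, 634 kept their call or stayed uncalled, which does not mean that each kept its sign. Medians close to 0 changed sign in some settings, such as those of the PI3K and Akt, TGF-beta and ribosomal lists without centring. The hair and skin median turned to -1.06 with single-gene entries of status OK, where 2 genes remained. In an alternative chosen after seeing the data, leaving out Fabp4 lowered the 7-day over 6-month ratio of shares from 3.81 to 1.86 for endothelial genes and from 2.95 to 2.23 for adipocyte genes. Genes of about 2 kb below 0.931 FPKM in the adult library cannot be told from 0 at this depth. No paired analysis was possible because each group is 1 pool, and no replicate could be left out.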

Other observations

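Several of the most extreme ratios belonged to genes outside the groups above. Cpz, a carboxypeptidase gene with a Wnt-binding domain, stood at 46.2 FPKM in the 7-day sham library, is listed at 0 in the 6-month one, and stood at 22.5 and 2.50 FPKM in the tenotomy libraries. On the adult side, Smox, the spermine oxidase gene, stood at 5.41 and 113 FPKM after sham and at 9.11 and 91.7 FPKM after tenotomy, so both 6-month libraries were above both 7-day libraries. Galnt15, a glycosyltransferase gene, stood at 1.74 and 76.4 FPKM after sham and was low in both tenotomy libraries (5.69 and 4.80 FPKM). Chi3l1, a secreted chitinase-like protein gene of chondrocytes and macrophages, stood at 0.249 and 25.7 FPKM. Mylk4, a kinase gene of muscle, stood at 8.32 and 160.4 FPKM and at 0.168 and 72.7 FPKM after tenotomy, the order of the muscle share, and Lrrc30 (0.476 and 31.6 FPKM, 0 and 13.2 FPKM) and Rasd2 (0.429 and 27.9 FPKM, 0.467 and 12.5 FPKM) had the same order of libraries at 6 months. Arrdc2, an arrestin-related gene, stood at 0.521 and 25.3 FPKM. Odf3l2 and Serpina3m are listed at 0 in the 7-day sham library and stood at 17.9 and 14.1 FPKM at 6 months.

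Immune and nerve lists with few genes at the floor gave few calls. Of 11 interferon-stimulated genes, 2 were higher at 7 days, Rsad2 (5.63 and 0.310 FPKM) and Isg15, which is listed at 0 at 6 months and stood at 5.24 FPKM at 7 days, and 1 was higher at 6 months, Irf7 (4.42 and 8.31 FPKM). Of 10 chemokine and cytokine genes, 1 was higher at 6 months, the eosinophil attractant gene Ccl11 (1.27 and 5.70 FPKM). Of 3 neutrophil genes, 2 were higher at 6 months, Lcn2 (5.60 and 44.7 FPKM), which is also induced by glucocorticoids, and S100a9 (4.92 and 9.45 FPKM), while S100a8 stood at 14.3 and 11.2 FPKM. Of 4 osteoclast genes 1 was higher at 7 days, Itgb3 (10.4 and 3.29 FPKM), and neither of the 2 Schwann cell and nerve genes at the floor was called. Among 25 skeletal muscle structure genes, 16 were higher at 6 months and none at 7 days (median -1.42), with Ttn (titin) at 207 and 795 FPKM and the calcium release channel gene Ryr1 at 59.4 and 378 FPKM.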
